A study of Homo sapiens with 9 samples.

Results

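The granzymes and the proteins packed with them into cytotoxic granules were followed over T cell activation in 9 genes: GZMB (ENSG00000100453), GZMA (ENSG00000145649), GZMH (ENSG00000100450), GZMK (ENSG00000113088), GZMM (ENSG00000197540), PRF1 (ENSG00000180644), GNLY (ENSG00000115523), NKG7 (ENSG00000105374) and SRGN (ENSG00000122862). They were chosen by name as a functional group with their footprint counts in all 3 groups already known, and all 9 were found among the 19569 gene IDs of the count table. Their values are therefore a description, and the adjusted p-values given with them, which come from a fit over the whole table, do not support the choice of genes.

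Ribosome profiling sequences the mRNA fragments covered by translating ribosomes, so a footprint count depends both on how much mRNA a gene has and on how many ribosomes it carries. The 9 libraries were made from Jurkat clone E6-1, an established human T lymphoblast line. They comprised 3 biological replicates of resting cells, 3 of cells activated for 5 h and 3 of cells activated for 12 h. The resting cells were labelled 0 h, and no unstimulated cells of 5 h or 12 h were included. Activation therefore cannot be told apart from time in culture. Activation was with anti-CD3 antibody coated on the plate at 10 µg/mL and anti-CD28 antibody added to the medium at 5 µg/mL, and the resting cells received neither, as far as the labels state. Every library came from 1 clonal leukaemia line, and no primary cytotoxic lymphocytes were included. The line was not checked against T cell or other cell type markers, because the tables used here do not pair their gene IDs with names.

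Cytotoxic granules are secretory lysosomes that killer lymphocytes release onto a target cell. Perforin, encoded by PRF1, forms pores through which the granzymes, a family of serine proteases, reach the target's cytosol. Inside the granule these positively charged proteins are held on serglycin, a proteoglycan whose core protein is encoded by SRGN. The granzymes differ in what they cut: granzyme B cleaves after aspartate and can activate caspases, granzymes A and K cleave after basic residues, granzyme H is a chymase, and granzyme M prefers methionine and similar residues.

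The shallowest library, 12 h replicate 2, held 4343515 counts and the deepest, 5 h replicate 3, held 18506509. Levels are given as CPM, counts per 1e+06 of a library size scaled with TMM factors, and so show a gene's share of footprints rather than its amount per cell. A gene was called higher or lower in a comparison at an adjusted p under 0.05 by edgeR's quasi-likelihood test. A rise in CPM can come from more cells translating the gene or from more footprints per cell, which cannot be told apart in such bulk samples. Longer coding regions collect more footprints, so levels are compared between groups for each gene and not between genes. The sums and shares over genes and the pick of the gene with the highest mean are exceptions, not corrected for length.

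The 9 genes divided by time course. At 5 h GZMB, GZMA and SRGN were higher than at rest. At 12 h GZMK had joined them, GZMA had risen further, GZMB and SRGN had moved part of the way back, and NKG7 was lower than at rest. PRF1, GZMM, GZMH and GNLY had few footprints in every group and were called in no comparison. Of the 9 genes, 8 passed the filter on low counts and were tested; GNLY was not.

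GZMB went from almost no footprints to a strong signal within 5 h. The resting libraries held 0, 0 and 2 counts, and a count of 0 allows up to 0.349 CPM in resting replicate 1 and 0.329 CPM in resting replicate 2, at 3 counts for each library. The 5 h libraries held 438, 513 and 876 counts, which is 44.1, 38.4 and 47.5 CPM. The 12 h libraries held 203, 116 and 185 counts, or 17.3, 25.4 and 24.8 CPM. Every activated library was far above every resting library, and every 12 h library was below every 5 h library.

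With only 2 resting counts, the size of the GZMB rise is known mainly as a range. The pooled ratio of 5 h to resting CPM was 599, with an exact 95% counting interval from 166 to 4952, and that of 12 h to resting was 291, from 80.1 to 2408. These intervals cover counting error only. The 2 counts came from resting replicate 3. Against the other 2 resting libraries, which had none, the mean 5 h level was 256 times a floor of 3 counts over both. The mean 12 h level was 133 times that floor. These 2 ratios leave out the only resting library with GZMB counts, so they are not lower bounds for all resting libraries. The fitted log2 fold changes were 8.99 ± 0.40 (SE) at 5 h, with an adjusted p of 1.98e-14, and 8.03 ± 0.42 at 12 h, with 6.92e-13, by the quasi-likelihood test of edgeR after Benjamini-Hochberg adjustment. DESeq2 gave larger SEs for GZMB, 1.04 at both times, so the edgeR SEs understate the error at 2 resting counts. Without resting replicate 3 the fitted log2 fold changes were 11.82 and 10.85. The values with and without this library depend on the prior count. With all libraries and a prior count of 2, edgeR gave 7.35 at 5 h and 6.395 at 12 h. Between the times GZMB fell by 0.96 ± 0.19 on the log2 scale, and edgeR's adjusted p was 0.000494. By fitted change GZMB ranked 8 from the top among 13920 IDs at 5 h and 4 at 12 h.

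**Figure D1:**
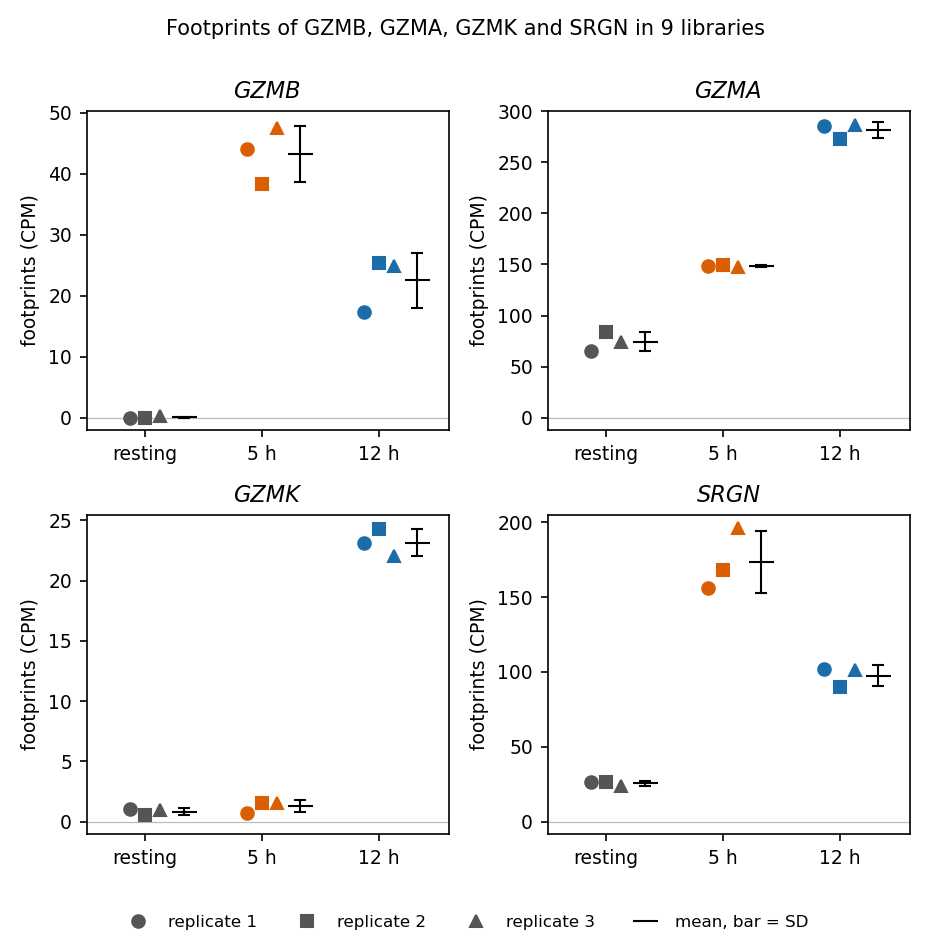
Footprints (CPM, linear axes) of GZMB, GZMA, GZMK and SRGN in resting cells and after 5 h and 12 h of activation; each symbol is 1 library, and the black mark and bar are the mean and SD of 3 replicates. GZMB and SRGN were highest at 5 h, at means of 43.3 and 173 CPM, while GZMA and GZMK were highest at 12 h, at 282 and 23.1 CPM.

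SRGN had the same order of groups as GZMB but started from a clear resting level. Its resting libraries gave 26.5, 26.6 and 23.7 CPM, its 5 h libraries 156, 168 and 196 CPM, and its 12 h libraries 102, 89.6 and 101 CPM. No library of one group overlapped with those of another. The mean was 25.6 ± 1.64 CPM in resting cells (SD, n = 3), 173 ± 20.6 at 5 h and 97.6 ± 6.93 at 12 h, so the 5 h level was 6.78 times and the 12 h level 3.82 times the resting one. The log2 fold change was 2.76 ± 0.12 (SE) at 5 h and 1.94 ± 0.12 at 12 h, with edgeR adjusted p-values of 1.03e-14 and 8.34e-12. SRGN then fell by 0.83 ± 0.11 on the log2 scale between 5 h and 12 h, with an edgeR adjusted p of 2.93e-06. Among all IDs tested, 238 of 13920, or 1.71%, had the calls that GZMB and SRGN shared: higher at both times and lower at 12 h than at 5 h.

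GZMA rose in steps of similar size. The resting libraries gave 65.6, 83.9 and 73.9 CPM, the 5 h libraries 148, 149 and 148 CPM, and the 12 h libraries 286, 273 and 286 CPM. The replicates lay close together and the groups were fully separated. Means were 74.5 ± 9.19 CPM in resting cells (SD, n = 3), 148 ± 0.690 at 5 h and 282 ± 7.60 at 12 h. The log2 fold change was 0.99 ± 0.10 (SE) at 5 h and 1.92 ± 0.10 at 12 h against rest, and 0.92 ± 0.09 between the times. The adjusted p-values by edgeR's quasi-likelihood test were 2.33e-08, 4.31e-13 and 9.45e-08. Such calls, higher in all 3 comparisons, were made for 136 of 13920 IDs, or 0.977%.

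GZMK was not called at 5 h and was much higher at 12 h. Its counts were 9, 5 and 9 at rest and 7, 21 and 29 at 5 h, against 271, 111 and 164 at 12 h. As levels these were 0.842 ± 0.260 CPM in resting cells (SD, n = 3), 1.28 ± 0.501 at 5 h and 23.1 ± 1.12 at 12 h. Resting and 5 h libraries overlapped, and all 12 h libraries lay above both. At 5 h the log2 fold change was 0.65 ± 0.40 (SE), with a 95% interval from -0.17 to 1.47 and an edgeR adjusted p of 0.217. At 12 h it was 4.76 ± 0.35 against rest and 4.11 ± 0.32 against 5 h, with edgeR adjusted p-values of 2.37e-10 and 1.19e-09. Its change from 5 h to 12 h ranked 6 from the top among 13920 IDs, and 429 IDs, or 3.08%, were called as it was: not at 5 h, and higher at 12 h than at both rest and 5 h.

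Granzyme genes lie in clusters, so neighbours were set side by side. In the RefSeq gene table GZMB and GZMH are adjacent protein-coding genes, and so are GZMK and GZMA. GZMK and GZMA were both higher at 12 h, but only GZMA was called higher at 5 h; the difference between their 5 h changes was not tested. GZMH had 12, 8 and 0 counts at rest, 16, 25 and 7 at 5 h and 5, 0 and 0 at 12 h. In the same order, the 5 h libraries held 438, 513 and 876 GZMB counts. Whether the 2 genes shared fragments was not tested. GZMH and GZMB are similar in sequence, and the sources used here do not say how fragments matching both were counted, so the small GZMH counts are uncertain.

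Promoter sequences are shown for the neighbours GZMB and GZMH and for GZMA. The footprints of GZMB and GZMA took different courses, while GZMH was called in no comparison. Each run is the 250 bases before the RefSeq start of the gene on build GRCh38.p14, written 5′ to 3′ on the gene's strand: chr14:24634191-24634440, minus strand, for GZMB; chr14:24609686-24609935, minus strand, for GZMH; and chr5:55102396-55102645, plus strand, for GZMA. Capitals mark matches to the motifs searched. TGANTCA (bound by AP-1), GGAAAA (a longer form of the core GGAAA bound by NFAT) and TGTGGT (bound by RUNX) were searched on both strands. TATAAA was searched on the gene's strand.
GZMB: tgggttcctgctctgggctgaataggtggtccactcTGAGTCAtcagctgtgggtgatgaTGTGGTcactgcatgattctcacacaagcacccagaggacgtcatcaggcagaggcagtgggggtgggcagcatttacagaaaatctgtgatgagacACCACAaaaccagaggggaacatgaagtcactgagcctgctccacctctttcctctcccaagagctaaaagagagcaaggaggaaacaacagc
GZMH: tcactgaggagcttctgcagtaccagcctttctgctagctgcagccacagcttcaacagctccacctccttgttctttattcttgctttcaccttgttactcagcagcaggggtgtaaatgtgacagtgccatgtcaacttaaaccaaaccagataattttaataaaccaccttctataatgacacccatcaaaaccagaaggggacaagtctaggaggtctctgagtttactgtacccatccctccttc
GZMA: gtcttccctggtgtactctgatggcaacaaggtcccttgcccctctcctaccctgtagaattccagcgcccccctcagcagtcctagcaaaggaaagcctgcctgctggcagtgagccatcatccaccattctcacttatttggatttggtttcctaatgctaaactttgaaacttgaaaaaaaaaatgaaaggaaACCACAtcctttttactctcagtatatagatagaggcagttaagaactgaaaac

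The GZMB window held TGAGTCA 214 bases before the start and TGTGGT or its reverse complement ACCACA at 190 and 93 bases. GZMA held ACCACA 54 bases before the start, and GZMH held none of the 4 motifs. RefSeq promoters were found for 6 of the 9 genes, also including PRF1, GNLY and NKG7. PRF1 and GNLY each held a TGTGGT match, both 62 bases before the start, and NKG7 held no match. Among all 35116 promoters in the table, 6.6% held TGANTCA, 21.2% GGAAAA, 11.0% TGTGGT and 6.8% TATAAA in this window, and none of the 6 held GGAAAA or TATAAA. The shorter NFAT core GGAAA was not searched, and the printed GZMB and GZMA windows hold it unmarked. The lack of GGAAAA therefore does not show that the NFAT core is missing. The matches describe letters only. The footprint data do not measure binding. No promoter was found here for SRGN, GZMK or GZMM.

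Across the tested genes, 3 of 8 were called higher and 0 lower at 5 h, against 16.0% of all 13920 IDs called higher and 18.4% lower. At 12 h against rest, 4 were called higher and 1 lower, beside 15.8% and 19.3% of all IDs. From 5 h to 12 h, 2 were called higher and 3 lower, beside 11.6% and 13.5%. The median log2 fold change of the 8 was 0.70 at 5 h and 0.52 at 12 h against rest, and -0.83 between the times, where all IDs had medians of 0.07, 0.04 and -0.05. These counts and medians are no test of the group. The genes were picked with their values known, some, such as GZMB, passed the low-count filter through the activated libraries alone, and both comparisons with rest use the same resting libraries.

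**Figure D2:**
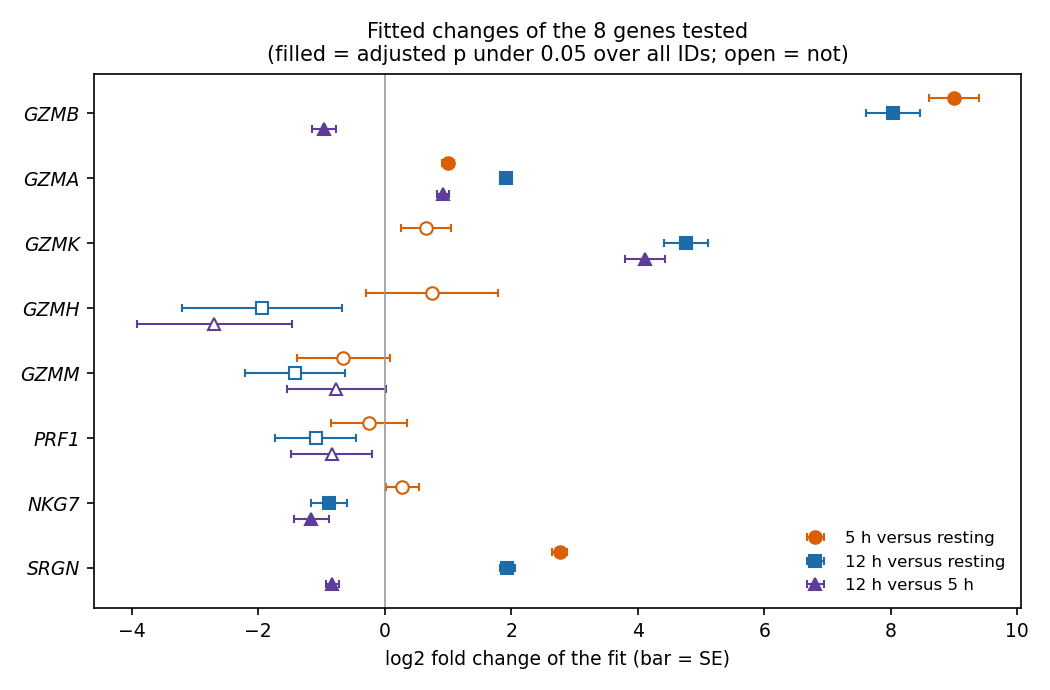
Fitted log2 fold changes with SE bars for the 8 genes tested, in the comparisons of 5 h with resting, 12 h with resting and 12 h with 5 h; filled symbols passed an adjusted p of 0.05 over all IDs. GZMK has an unfilled symbol only for 5 h against rest, at 0.65. NKG7 is the only gene with filled symbols at 12 h below 0 against rest, at -0.88.

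NKG7, a granule membrane protein needed for efficient granule release, was the one gene called lower than at rest. Its libraries gave 9.53, 9.11 and 6.62 CPM at rest, 12.1, 8.98 and 9.59 CPM at 5 h and 3.84, 5.68 and 4.43 CPM at 12 h. Resting and 5 h libraries overlapped, while all 12 h libraries were lower than both. The mean was 8.42 ± 1.57 CPM in resting cells (SD, n = 3), 10.2 ± 1.64 at 5 h and 4.65 ± 0.939 at 12 h. The 5 h change was 0.28 ± 0.26 (log2, SE), with an edgeR adjusted p of 0.442. By 12 h NKG7 had fallen by 0.88 ± 0.28 against rest and by 1.16 ± 0.28 against 5 h, with edgeR adjusted p-values of 0.0176 and 0.00293. The call against rest was lost without resting replicate 1 (-0.80, edgeR adjusted p = 0.0628) and without 12 h replicate 1 (-0.76, edgeR adjusted p = 0.0780).

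PRF1, the pore-forming partner of the granzymes, showed no called change. Its counts were 35, 23 and 17 at rest, 37, 32 and 18 at 5 h and 16, 3 and 13 at 12 h. As levels these were 4.07, 2.52 and 1.76 CPM at rest, 3.72, 2.39 and 0.976 CPM at 5 h and 1.37, 0.656 and 1.74 CPM at 12 h. The 12 h libraries all lay below the resting ones, by as little as 1.74 against 1.76 CPM, and 5 h libraries overlapped with both. The log2 fold change was -0.25 ± 0.60 (SE) at 5 h and -1.09 ± 0.64 at 12 h, with edgeR adjusted p-values of 0.780 and 0.201. The 95% intervals ran from -1.505 to 1.00 and from -2.43 to 0.24; changes within these bounds are compatible with the data. The 5 h estimate changed sign without resting replicate 1 (0.12) and without 5 h replicate 3 (0.10).

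GZMM and GZMH also had wide errors. GZMM gave 1.74, 1.10 and 3.31 CPM at rest, 0.906, 1.497 and 1.46 CPM at 5 h and 1.37, 0.656 and 0.134 CPM at 12 h, and its groups overlapped in each comparison. Its log2 fold change was -0.66 ± 0.73 (SE) at 5 h and -1.43 ± 0.79 at 12 h, with edgeR adjusted p-values of 0.522 and 0.173. Single libraries moved the 12 h value, to -2.49 without 12 h replicate 1 and to -0.91 without resting replicate 3. GZMH was at 0.758 ± 0.705 CPM in resting cells (SD, n = 3), 1.29 ± 0.797 at 5 h and 0.142 ± 0.247 at 12 h. Its changes against rest were 0.75 ± 1.04 at 5 h and -1.95 ± 1.27 at 12 h (log2, SE), with edgeR adjusted p-values of 0.613 and 0.253. Between 5 h and 12 h it differed by -2.70 ± 1.23, with an edgeR adjusted p of 0.118. Without 12 h replicate 1, which held all 5 of its counts at 12 h, the fitted 12 h changes were -5.96 against rest and -6.70 against 5 h, and without resting replicate 1 the change against rest was -1.23. The 5 h change was 0.15 without resting replicate 3 and 1.52 without resting replicate 1. Neither GZMM nor GZMH was called in any comparison when each library was left out in turn.

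GNLY encodes granulysin, a small protein that damages microbial membranes. It had 0, 1 and 0 counts at rest, 2, 0 and 5 at 5 h and 0, 10 and 2 at 12 h, and so did not pass the low-count filter. Of its 12 counts at 12 h, 10 came from replicate 2, the shallowest library. A two-sided exact permutation test of its CPM gave p = 0.4 for 5 h against rest and p = 0.4 for 12 h against rest, where 0.1 is the smallest p that 3 against 3 libraries allow. No level of GNLY can be told from the few counts of any group.

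**Figure D3:**
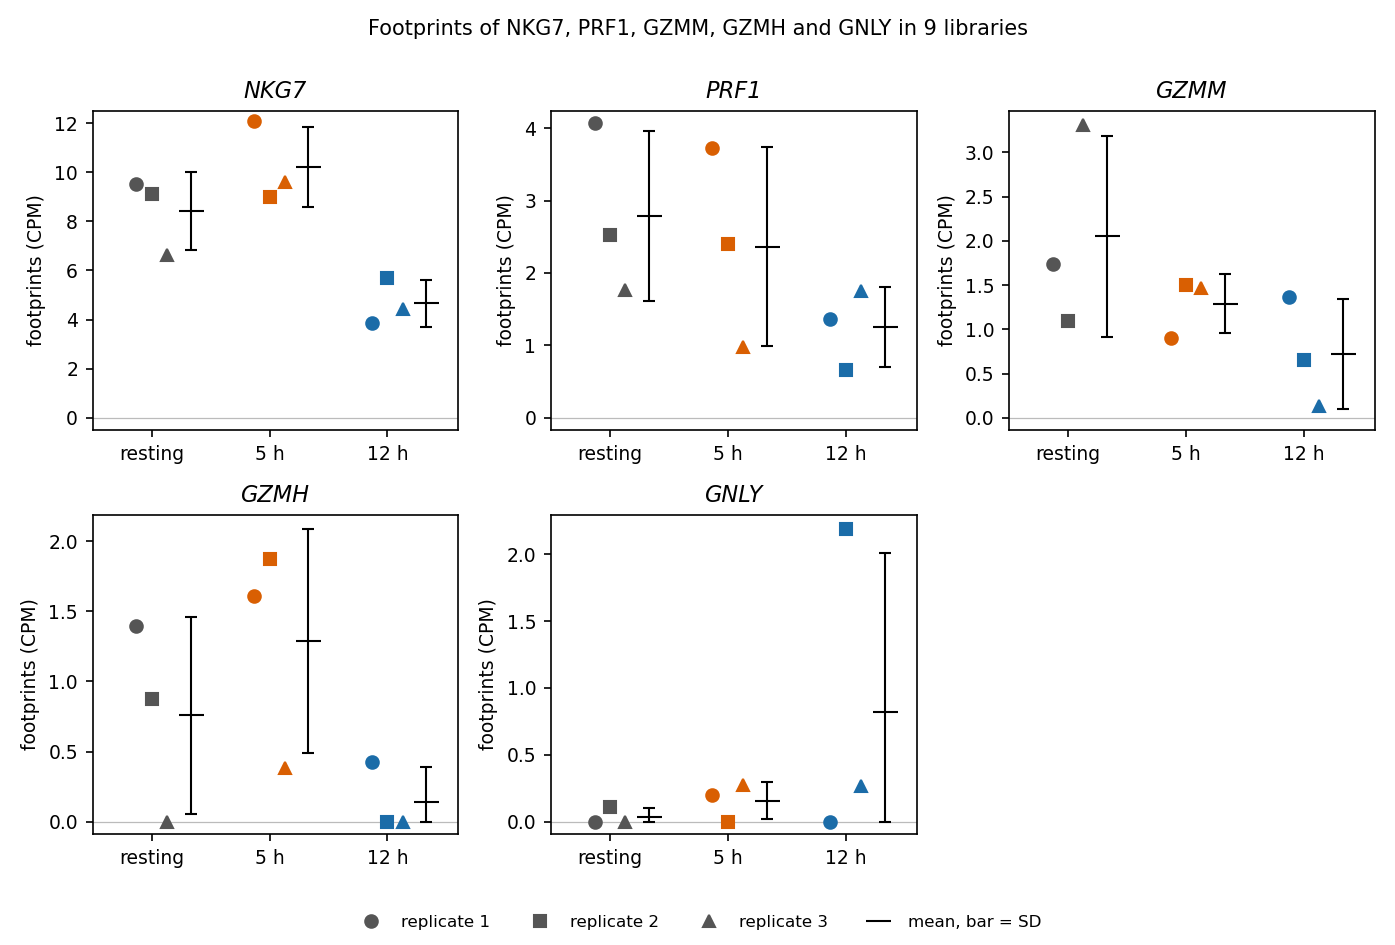
Footprints (CPM, linear axes) of NKG7, PRF1, GZMM, GZMH and GNLY by library and group, with the mean and SD of 3 replicates (bars cut at 0). NKG7 is lowest at 12 h, at a mean of 4.65 CPM, and in GNLY a single 12 h library at 2.19 CPM stands above the rest.

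Together the 9 genes took 110 to 125 CPM of the footprints in resting libraries, 368 to 406 CPM at 5 h and 421 to 441 CPM at 12 h. The 5 granzymes alone took 69.8 to 86.5 CPM at rest, 193 to 199 CPM at 5 h and 323 to 333 CPM at 12 h. The make-up of this sum moved with time. SRGN supplied 22.3% ± 1.60 of the 9 genes' counts in resting cells (SD, n = 3), 45.3% ± 2.92 at 5 h and 22.6% ± 1.13 at 12 h. GZMA supplied 64.6% ± 4.29, 39.0% ± 2.16 and 65.1% ± 0.491. GZMB went from 0.0624% ± 0.108 to 11.3% ± 0.889 and then 5.21% ± 1.08, and GZMK from 0.745% ± 0.270 to 0.334% ± 0.124 and then 5.36% ± 0.387. PRF1 supplied 2.44% ± 1.12 at rest, 0.632% ± 0.386 at 5 h and 0.289% ± 0.122 at 12 h. A share depends on the sum as well as on the gene's own counts, and was not corrected for coding length.

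**Figure D4:**
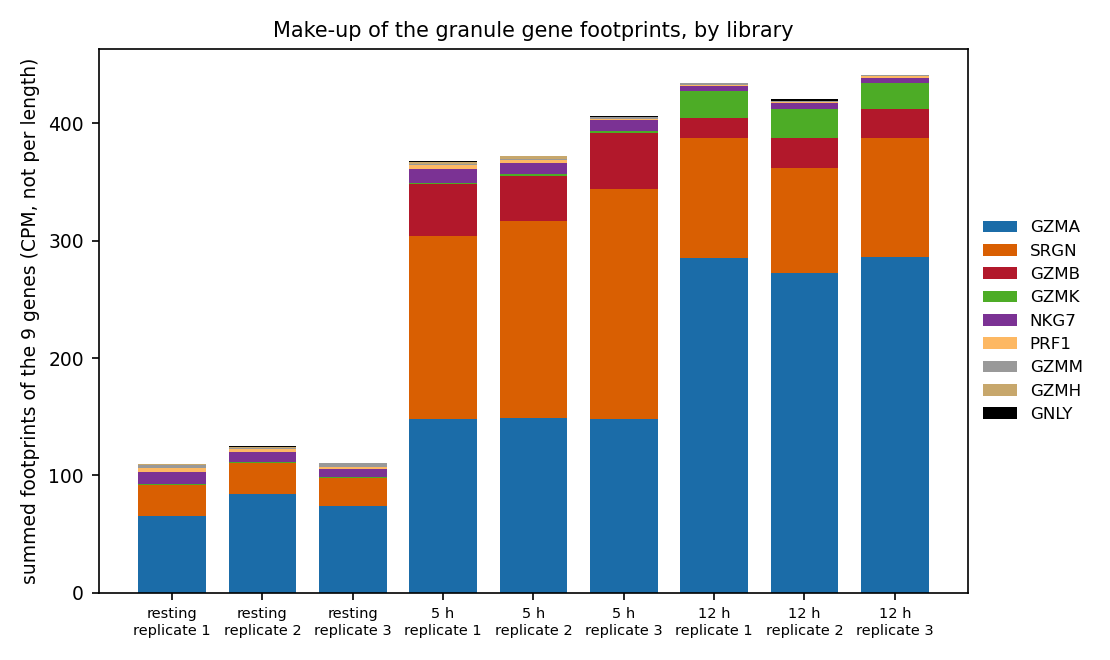
Summed footprints of the 9 genes (CPM, not per length) in each library, stacked by gene. The sum rises from at most 125 CPM at rest to at least 368 CPM in activated libraries; the SRGN and GZMB blocks are largest at 5 h and the GZMA and GZMK blocks at 12 h.

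Over the 9 libraries, log2 CPM of GZMB correlated with that of SRGN at 0.97 and with that of GZMA at 0.81, and GZMA correlated with GZMK at 0.87, while GZMK and NKG7 correlated at -0.88. The libraries fall into 3 groups, so these coefficients mainly compare the group means. Of the 10237 other tested IDs averaging at least 4 CPM, the most similar to GZMB was ENSG00000197594.13 (Pearson's r = 0.995), at means of 1.01, 83.7 and 58.3 CPM at rest, 5 h and 12 h. The most similar to GZMA, the gene of the group with the highest mean, was ENSG00000112972.15 (r = 0.996), at means of 335, 761 and 1448 CPM. A coefficient over 0.95 was reached by 143 IDs for GZMB and by 102 for GZMA.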

How the data were processed

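The genes and the lists were chosen with earlier results of these data known. Symbols were given with the 9 IDs; lists of other granule, regulator and marker genes, written by symbol, could not be matched to the IDs and were not analysed here. The authors deposited whole-number footprint counts for 19569 Ensembl IDs in 9 libraries, with no normalization; per the submitters' processing notes, cutadapt 3.2, Bowtie, bedtools, RSEM, DESeq2 and GRCh38.p13 were used, with no step named for each. The authors also deposited log2 values for 11572 IDs, 6 of the 9 genes among them, which equal log2 of the count over 1 size factor per library, plus 1, to within 5.03e-09.

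Counts of all 9 libraries entered 1 fit with edgeR 4.0.16 (R 4.3.3): filterByExpr, which left 13920 IDs, TMM scaling, the quasi-likelihood test, and Benjamini-Hochberg adjustment over all IDs within each comparison. The common biological coefficient of variation was 15.6%. SE is the absolute log2 fold change over the square root of F. The procedure was tested on simulated data. Changes were placed there only in IDs above a minimum mean count. The simulation therefore did not cover genes with very few counts or a rise as large as that of GZMB. Alternatives were DESeq2 1.42.0, limma 3.58.1 on the log2 table, other scalings, filters and a replicate block. All 9 genes were named by rule, with the most similar ID for the gene changed most at 5 h and the gene of highest mean. Promoters came from RefSeq on GRCh38.p14; the submitters' processing notes name GRCh38.p13, so the only coordinates given are those of the promoter table.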

Additional observations from a re-analysis of the deposited data

Results flagged for a closer look

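For 5 genes the footprints of activated cells differed between the time points, by the direct edgeR test of 12 h against 5 h. The log2 change from 5 h to 12 h was 4.11 for GZMK and 0.92 for GZMA. Both were higher in 3 of 3 libraries at 12 h than in any at 5 h. The change was -0.96 for GZMB, -1.16 for NKG7 and -0.83 for SRGN, lower in 3 of 3 libraries. Among all 13920 IDs the test called 11.6% higher and 13.5% lower. The 5 genes were listed because this test called them, so the separation of libraries adds no support. The share of all IDs with such separation was not counted.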

How the results depend on the processing

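The counts of genes called, 3 at 5 h and 5 at 12 h against rest and 5 between the times, were within 1.5 times of these under all alternatives except the test against a 1.5-fold change, which called 2 genes between 12 h and 5 h, GZMA and GZMK, and no longer GZMB, NKG7 or SRGN. That test asks for more than any change, and it also lost NKG7 at 12 h against rest. Between 5 h and 12 h it called 217 of all 13920 IDs higher and 400 lower. The main test called 1620 and 1878. Limma on the log2 table, which does not list GZMB, GZMH or GNLY, called 2, 4 and 4 of 6 genes. At 5 h it called 1990 of all 11572 IDs higher and 2699 lower. At 12 h it called 2261 higher and 2619 lower against rest, and 2001 and 1711 against 5 h. The genes tested numbered from 5, with at least 50 counts in 3 libraries, to 9, with no low-count filter. The counts of genes called under the alternatives therefore come from unlike sets. Leaving out each library in turn gave 3 to 3, 4 to 5 and 5 to 5 genes. With the replicate block, 3, 5 and 5 genes were called. Deviations of same-numbered libraries from their group means correlated at -0.06 to 0.09. The labels do not say that a number marks a shared batch, and these correlations, which counting noise also lowers, do not settle it. Of 437 fold changes under alternatives, 429 kept direction and call, 6 lost the call and 2 changed sign, both for PRF1 at 5 h, which was never called (0.12 without resting replicate 1 and 0.10 without 5 h replicate 3, over a range from -0.73 to 0.12 when each library was left out). Part of the agreement among the 437 was fixed in advance. The test against a 1.5-fold change reuses the main fold changes, and a prior count of 2 left the adjusted p-values unchanged. The fit with the authors' size factors was chosen after seeing the data. PRF1, GZMM, GZMH and GNLY had at most 87 counts in any group and a wide replicate spread; the parts of depth and spread in their missing calls were not tested.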
